A study of Mus musculus with 6 samples.

Results

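The 32 genes described here encode amino acid transporters, named one by one as carriers of cationic, large neutral, acidic, small neutral and other amino acids. They were taken by symbol from the 35275 gene rows of a table of expression levels, and all 32 symbols were found. The list was chosen with earlier results of these data known, so it is not a selection blind to them. RNA was sequenced from mouse 3T3 cells, an immortalised line of embryonic fibroblasts. Of the 6 libraries, 3 were from cells with a construct that overexpresses NNMT, nicotinamide N-methyltransferase (NNMT cells) and 3 were from cells with a control construct (Ctrl cells). NNMT methylates nicotinamide and takes the methyl group from S-adenosylmethionine, which cells make from methionine. Both groups had grown for 48 h in methionine-free medium to which 10 µM methionine and 10% dialyzed serum, which carries few free amino acids, had been added. The study asked which genes respond to NNMT at a methionine level near that of blood. The sources used here do not give the promoter of the construct, the species of its NNMT or whether the cells were pools or clones.

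Amino acids cross membranes mainly through carriers, and most carriers take a group of related substrates. Uniporters let an amino acid run down its gradient, exchangers swap one amino acid for another, and sodium- or proton-coupled carriers pump their substrate uphill. In the heterodimeric carriers a light chain that forms the transport path is joined by a disulfide bond to the glycoprotein 4F2hc (CD98 heavy chain, encoded by Slc3a2), which takes it to the cell surface. Methionine enters cells through several of the carriers named here, among them the light chain LAT1 (Slc7a5) and the sodium-coupled system A carriers of the SLC38 family. When amino acids run short, the kinase GCN2 raises translation of the transcription factor ATF4, which binds amino acid response elements in genes of uptake and synthesis. Endolysosomal carriers move amino acids out of the lysosome, where the kinase complex mTORC1 reads their supply.

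Promoter sequences were found for 25 of the 32 genes in RefSeq (build GRCm38.p6), as 38 windows of the 250 bases before a RefSeq transcript start. Slc7a2, Slc7a3, Slc7a5, Slc1a5, Slc38a1, Slc38a3 and Slc6a6 had no window and were not searched. Slc7a11 is shown in full because it is a known ATF4 target and had the largest called fold change in mean level among the tested transporters (described with the 4F2hc carriers). Its window holds 2 matches to the ATF4 site searched (TGATGNAA, or TTNCATCA on the other strand), printed in capitals. The window is chr3:50443614-50443863 on the minus strand, written 5′ to 3′.
Slc7a11: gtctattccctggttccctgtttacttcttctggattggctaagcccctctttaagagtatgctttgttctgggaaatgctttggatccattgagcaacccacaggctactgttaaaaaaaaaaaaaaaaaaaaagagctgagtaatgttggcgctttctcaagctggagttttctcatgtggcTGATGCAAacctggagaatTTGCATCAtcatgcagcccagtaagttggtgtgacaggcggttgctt
At least 1 match was found in 3.45% of all 32851 RefSeq windows, and 2 matches in 13 windows (0.0396%). Among the transporters, 3 of 38 windows (7.89%) held a match, in Slc7a11 and in windows of Slc7a7 that overlap at their ends but hold different matches (TGATGCAA and TGATGAAA). The palindrome CACGTG (E-box), which is read by factors such as the lysosomal regulators TFEB and TFE3, was present in 6.02% of all windows and in 3 of the 38 (7.89%). Those 3 belong to Slc38a7, Slc43a1 and Slc36a1, and 30 bases around each are shown, with the E-box in capitals, because Slc38a7 and Slc36a1 both encode lysosomal carriers and are set side by side in the endolysosomal class. They are chr8:95853508-95853537 on the minus strand for Slc38a7, chr2:84840247-84840276 on the plus strand for Slc43a1 and chr11:55204297-55204326 on the plus strand for Slc36a1.
Slc38a7: gtgattcaggctCACGTGttacttgagtcg
Slc43a1: agggtctccctcCACGTGgcagccgtggga
Slc36a1: ggaatggagcggCACGTGacctgggctagg
The antioxidant response element read by NRF2 (TGACNNNGC, or GCNNNGTCA on the other strand) was present in 10.2% of all windows and in 6 of the 38 (15.8%), those of Slc7a1, Slc7a6, Slc38a2, Slc43a1 and Slc6a9. All motifs were searched on both strands, none of the 3 contains another, and a match describes letters in a window, not binding.

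The libraries held 35285017 to 39982047 counted reads or fragments in NNMT cells and 31622222 to 38878713 in Ctrl cells, as recovered from the deposited values, so that 1 read per kilobase of gene came to 0.0250 to 0.0316 FPKM (fragments per kilobase and per library total, the unit of all levels here). One NNMT column carries no replicate number and is called the unnumbered NNMT library. Nnmt itself stood at 15.03 to 18.3 FPKM in NNMT cells and at 5.25 to 7.60 FPKM in Ctrl cells (log2 fold change 1.23, limma adjusted p = 4.75e-06). All 10 fibroblast markers were expressed (summed level 9578 to 10865 FPKM in NNMT cells and 7532 to 7755 FPKM in Ctrl cells, 5 higher and 4 lower in NNMT cells). Summed markers of epithelial, endothelial, leukocyte and skeletal muscle cells stayed between 0.118 and 1.64 FPKM in NNMT cells and between 0.132 and 2.16 FPKM in Ctrl cells, with Epcam, Krt18, Cldn4, Cd3e, Myod1 and Myog at 0 in every library. Levels of genes on the sex chromosomes differed as blocks, with a median log2 fold change of -0.70 over 338 tested genes of chromosome X and 2.84 over 7 of chromosome Y, and their part in other results was not tested.

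In NNMT cells most of the transporters that could be tested were higher than in Ctrl cells. Of the 32 genes, 23 reached a mean of 1 FPKM over the libraries and were tested, and 9 did not, of which 2 had no read at all. Among the 23, 14 rose, 3 fell and 6 did not pass (limma on log2(FPKM + 1), Benjamini-Hochberg adjusted p under 0.05 over all 10882 genes tested). The 17 calls are 73.9% of the 23, against 65.6% of all genes tested. Rises made up 60.9% of the 23, against 35.0% of all genes, and falls made up 13.0%, against 30.6%. The median log2 fold change (NNMT over Ctrl) was 0.20 over the 23 and 0.03 over all genes, and the median size without sign was 0.27 against 0.24. The share called thus lay near that of the whole table, and it was the direction of the calls that leaned upward. Groups did not overlap for 20 of the 23, against 69.9% of all genes. Of 143 other tested genes with an Slc symbol, 54 rose and 39 fell, and their median log2 fold change was 0.08. In bulk RNA a lower level in every cell and fewer expressing cells cannot be told apart. In what follows n = 3 libraries per group, errors are SD, levels are FPKM, and log2 fold changes on log2(FPKM + 1) understate the change of genes with low levels.

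**Figure D1:**
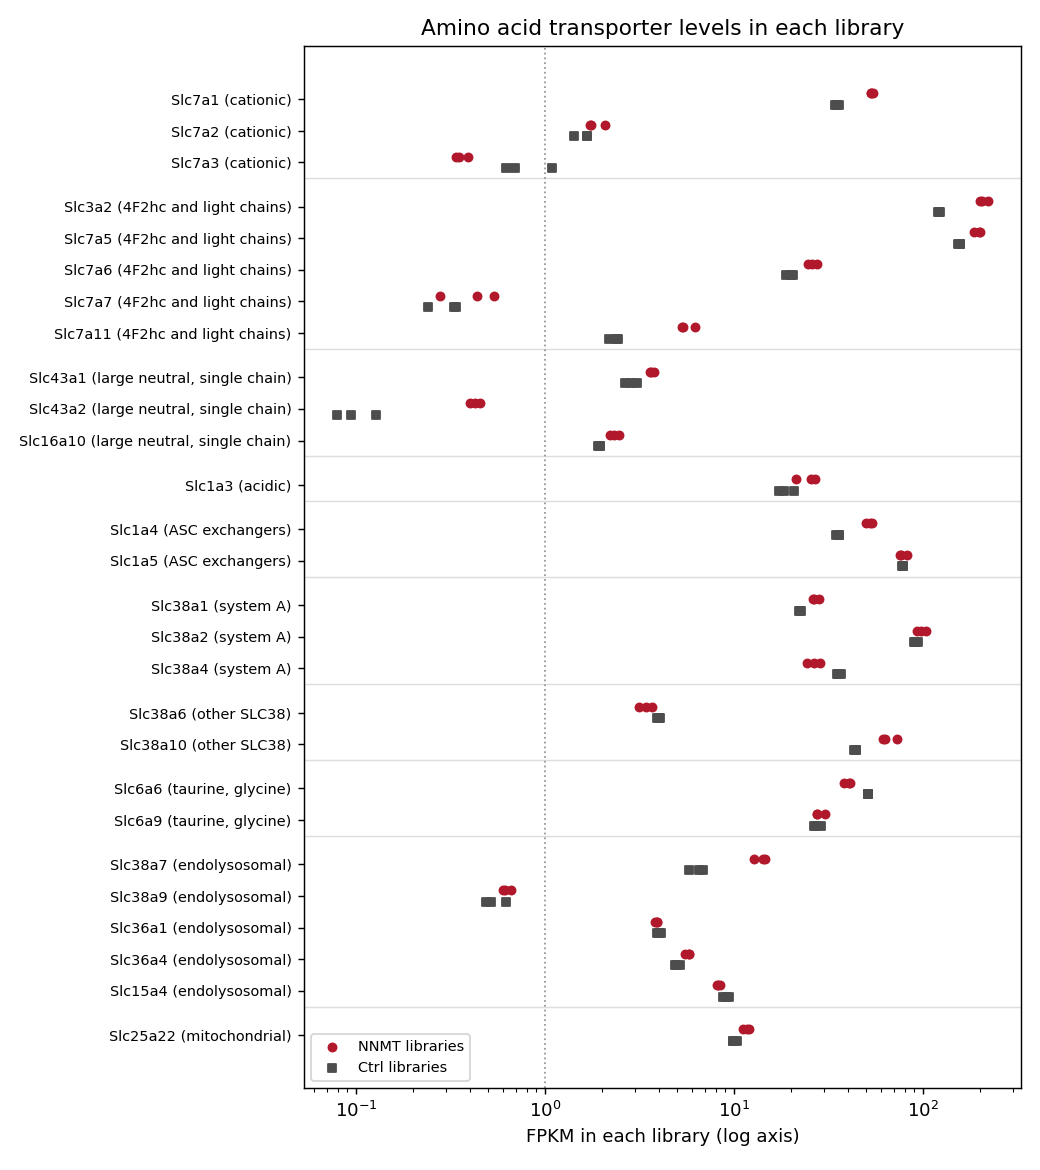
FPKM of each library on a log axis for 27 transporters in order of transport class, with NNMT libraries as red circles and Ctrl libraries as grey squares. The dotted line marks 1 FPKM, the mean needed for a test. Slc3a2, Slc7a11 and Slc38a7 show NNMT libraries clear of Ctrl libraries on the right, while Slc38a4 and Slc6a6 lie on the left; Slc7a8, Slc1a1, Slc1a2, Slc38a3 and Slc38a11 were at or near 0 and are not drawn.

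Carriers of cationic amino acids were represented almost wholly by Slc7a1 (CAT1), the widely expressed importer of arginine, lysine and ornithine. Slc7a1 (ENSMUSG00000041313, chromosome 5, 148327410 to 148399904 in GRCm38, minus strand) had 53.1 FPKM in the unnumbered library of NNMT cells, 54.4 in NNMT replicate 2 and 53.2 in NNMT replicate 3, against 35.0, 36.1 and 34.3 FPKM in Ctrl replicates 1, 2 and 3. Every NNMT library lay above every Ctrl library, and the 3 libraries of each group were close together. Means of 53.6 ± 0.736 FPKM in NNMT cells and 35.1 ± 0.892 FPKM in Ctrl cells differed 1.53-fold (log2 fold change 0.60, SE 0.0434, limma adjusted p = 1.28e-06). Slc7a2 (CAT2, known for arginine uptake in activated macrophages) had 1.73, 1.75 and 2.07 FPKM in NNMT libraries, against 1.66, 1.43 and 1.66 FPKM in Ctrl libraries, in the same order of libraries. These values did not overlap, yet the difference did not pass (log2 fold change 0.14, SE 0.0775, adjusted p = 0.131). Slc7a3 (CAT3, mainly a brain carrier) lay below the test filter with 0.336, 0.391 and 0.350 FPKM in NNMT libraries, against 0.694, 1.08 and 0.620 FPKM in Ctrl libraries, on 110 and 235 reads in all. All 3 NNMT values were lower than all 3 Ctrl values, and the Ctrl mean was 2.23 times the NNMT mean. With no filter the log2 fold change was -0.40 (adjusted p = 0.0180), a value that the added constant of 1 FPKM makes small. Slc7a3 lies on chromosome X, where 34 of the 37 tested genes within 5 Mb of it were lower in NNMT cells, with a median log2 fold change of -0.61.

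Among the 4F2hc carriers in the list, the heavy chain and all 3 tested light chains rose. The other 2 listed light chains were too low to be tested. Slc3a2 (ENSMUSG00000010095, chromosome 19, 8706882 to 8723369, minus strand), the heavy chain, had 220.2 FPKM in the unnumbered NNMT library and 205.8 and 198.9 FPKM in NNMT replicates 2 and 3, against 120.2, 121.0 and 123.45 FPKM in Ctrl replicates 1 to 3. No NNMT library came near the Ctrl range. Slc3a2 averaged 208 ± 10.9 FPKM in NNMT cells and 122 ± 1.68 FPKM in Ctrl cells, a 1.71-fold difference (log2 fold change 0.77, SE 0.0491, adjusted p = 5.09e-07). It was the most abundant of the 32 transcripts in NNMT cells, where it took 21.2% of their summed FPKM, against 15.5% in Ctrl cells, in which Slc7a5 ranked first.

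Slc7a5 (ENSMUSG00000040010, chromosome 8, 121881150 to 121907694, minus strand) encodes LAT1, which takes up leucine, methionine and aromatic amino acids in exchange for glutamine. It had 198, 199 and 185 FPKM in the NNMT libraries, against 156, 156 and 153 FPKM in the Ctrl libraries. The groups were separate, but by less than for Slc3a2. Slc7a5 averaged 194 ± 7.85 FPKM in NNMT cells and 155 ± 1.69 FPKM in Ctrl cells, 1.252-fold apart (log2 fold change 0.32, SE 0.0460, adjusted p = 0.000142). Slc7a6 (y+LAT2), which exports arginine in exchange for neutral amino acids and sodium, had 24.6, 27.3 and 25.9 FPKM in NNMT libraries, against 18.8, 20.02 and 20.4 FPKM in Ctrl libraries. It rose 1.31-fold, with every NNMT library above the Ctrl range (log2 fold change 0.38, SE 0.0539, adjusted p = 0.000146).

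Slc7a11 (ENSMUSG00000027737, chromosome 3, 49892526 to 50443614, minus strand) encodes xCT, the light chain that imports cystine in exchange for glutamate and so feeds glutathione synthesis. It stood at 5.31, 6.20 and 5.35 FPKM in the NNMT libraries, against 2.17, 2.44 and 2.41 FPKM in the Ctrl libraries. The lowest NNMT library was above the highest Ctrl library by more than the range of either group. Its means of 5.62 ± 0.500 FPKM in NNMT cells and 2.34 ± 0.147 FPKM in Ctrl cells differed 2.40-fold (log2 fold change 0.98, SE 0.0718, adjusted p = 1.28e-06). Its promoter window with 2 ATF4 site matches is printed above. Slc7a11 stayed a small part of the light chains by level, at 0.0290 ± 0.00217 of the Slc7a5 level in NNMT cells and 0.0151 ± 0.00103 in Ctrl cells.

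The remaining listed light chains were barely detected. Slc7a7 (y+LAT1, whose human gene is mutated in lysinuric protein intolerance) had 0.536, 0.278 and 0.437 FPKM in NNMT libraries, against 0.329, 0.240 and 0.339 FPKM in Ctrl libraries, with overlapping groups (adjusted p = 0.314 with no filter). Its exons overlap those of Oxa1l on the other strand, which averaged 17.3 ± 0.237 FPKM in NNMT cells and 20.3 ± 0.375 FPKM in Ctrl cells, so its own level is uncertain, because the sources used here give no strand rule for the counting. Slc7a8 (LAT2) had 0.0310, 0.0211 and 0.0068 FPKM in NNMT libraries, against 0, 0.0064 and 0 FPKM in Ctrl libraries, at or below about what 1 read per kilobase of gene was worth.

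Heavy and light chains did not rise in proportion. The summed FPKM of the 5 listed light chains was set against the Slc3a2 level. It was 1.04 times that level in the unnumbered NNMT library, 1.13 times in NNMT replicate 2 and 1.09 times in NNMT replicate 3. In Ctrl replicates 1, 2 and 3 it was 1.48, 1.48 and 1.43 times that level. The ratio was lower in every NNMT library than in every Ctrl library. It averaged 1.09 ± 0.0462 in NNMT cells and 1.46 ± 0.0281 in Ctrl cells, a difference of -0.373 (exact two-sided permutation test, p = 0.1, the smallest that 3 against 3 libraries allow). Slc7a5 alone carried most of this, at 0.932 ± 0.0332 of the Slc3a2 level in NNMT cells and 1.27 ± 0.0313 in Ctrl cells. The xCT light chain moved the other way, at 0.0270 ± 0.00299 of Slc3a2 in NNMT cells and 0.0193 ± 0.00108 in Ctrl cells. Ratios of FPKM between genes depend on the gene lengths used, so only their difference between groups is read here, and they describe transcripts and not protein pairs.

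**Figure D2:**
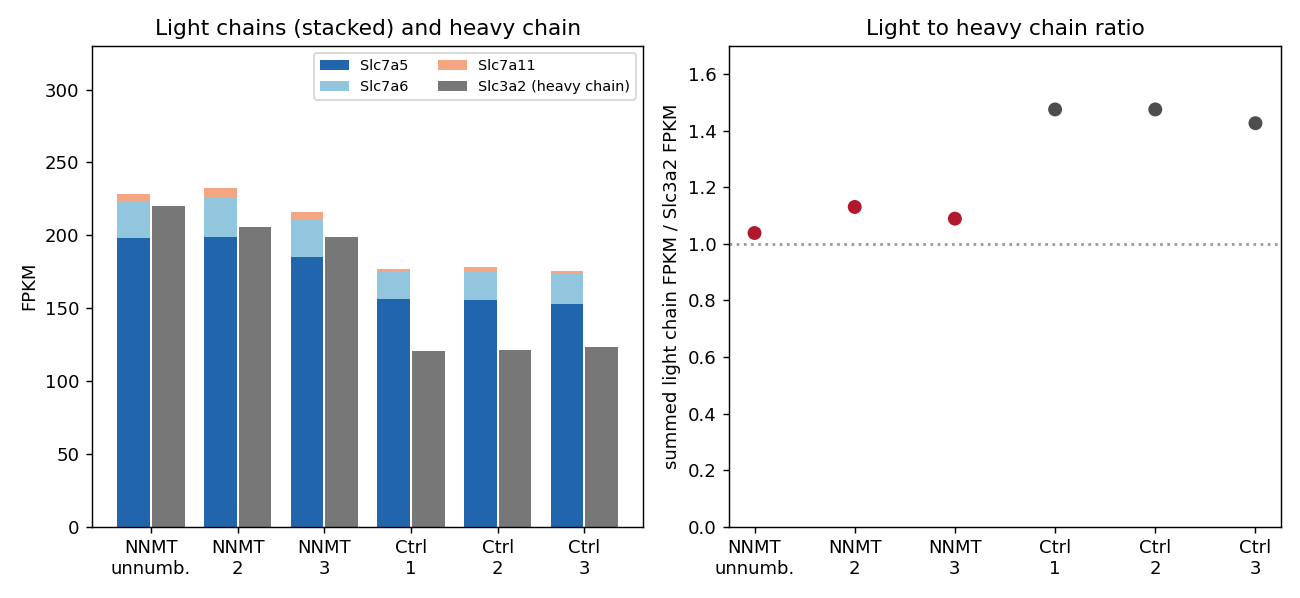
The left panel gives FPKM per library, with the light chains Slc7a5, Slc7a6 and Slc7a11 stacked beside the heavy chain Slc3a2 (grey); Slc7a7 and Slc7a8 are too low to be seen and are left out of the bars. The right panel gives the summed FPKM of the 5 listed light chains over Slc3a2 FPKM, with a dotted line at 1. This ratio was 1.04 to 1.13 in NNMT libraries (red) and 1.43 to 1.48 in Ctrl libraries (grey).

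Large neutral amino acids are also carried by single-chain proteins that need no 4F2hc, and these rose less in absolute level. Slc43a1 (LAT3), a uniporter of branched-chain amino acids, phenylalanine and methionine, had 3.64, 3.76 and 3.60 FPKM in NNMT libraries, against 2.66, 2.86 and 3.06 FPKM in Ctrl libraries. The groups did not overlap, and the rise was 1.28-fold (log2 fold change 0.27, SE 0.0640, adjusted p = 0.00345). Slc16a10 (TAT1), a uniporter of aromatic amino acids, had 2.32, 2.21 and 2.45 FPKM in NNMT libraries, against 1.94, 1.96 and 1.91 FPKM in Ctrl libraries. Its 1.20-fold rise passed narrowly (log2 fold change 0.18, SE 0.0643, adjusted p = 0.0309). That call was lost without Ctrl replicate 1 (adjusted p = 0.0705), Ctrl replicate 2 (0.0702), Ctrl replicate 3 (0.0827), the unnumbered NNMT library (0.0581) or NNMT replicate 3 (0.0965). Slc43a2 (LAT4), the close relative of LAT3, lay below the test filter at 0.451, 0.40 and 0.424 FPKM in NNMT libraries, against 0.0946, 0.0791 and 0.128 FPKM in Ctrl libraries. All NNMT values were well clear of the Ctrl values, with means 4.22-fold apart on 340 reads in NNMT cells and 74 reads in Ctrl cells. With no filter its log2 fold change was 0.37 (SE 0.0464, adjusted p = 0.000795), a value that the added constant of 1 FPKM makes small.

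Among the carriers of acidic amino acids, which pump glutamate and aspartate with sodium, only Slc1a3 was expressed at a level that could be tested. Slc1a3 (EAAT1, known as GLAST in glia) had 25.5, 21.4 and 26.7 FPKM in NNMT libraries, against 20.8, 17.3 and 18.3 FPKM in Ctrl libraries. The lowest NNMT value, that of replicate 2, lay only just above the highest Ctrl value. Means of 24.5 ± 2.80 FPKM in NNMT cells and 18.8 ± 1.80 FPKM in Ctrl cells were 1.30-fold apart (log2 fold change 0.36, SE 0.0864, adjusted p = 0.00378). Slc1a3 varied most between libraries of all tested transporters, with a coefficient of variation of 11.4% in NNMT cells and 9.58% in Ctrl cells. Slc1a1 (EAAT3) was at 0 in all 6 libraries, where 3 reads would have given 0.0197 to 0.0249 FPKM. Slc1a2 (EAAT2, the main glutamate carrier of astrocytes) had 5 reads in NNMT cells and 2 reads in Ctrl cells, so that no difference was detectable at this depth.

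The 2 ASC exchangers, which swap small neutral amino acids such as alanine, serine and cysteine, parted. Slc1a4 (ASCT1; ENSMUSG00000020142, chromosome 11) had 53.4, 49.7 and 52.2 FPKM in NNMT libraries, against 36.1, 34.8 and 36.1 FPKM in Ctrl libraries. All NNMT libraries lay far above the Ctrl range, and the 1.45-fold rise passed (log2 fold change 0.53, SE 0.0463, adjusted p = 4.71e-06). Slc1a5 (ASCT2), which also carries glutamine and is prominent in dividing cells, had 81.7, 76.5 and 75.5 FPKM in NNMT libraries, against 77.2, 78.0 and 78.5 FPKM in Ctrl libraries. The groups overlapped, with the unnumbered NNMT library highest and the other NNMT libraries lowest. Slc1a5 averaged 77.9 ± 3.33 FPKM in NNMT cells and 77.9 ± 0.652 FPKM in Ctrl cells (log2 fold change -0.00, SE 0.0463, adjusted p = 0.995). The Slc1a4 level was thus 0.665 ± 0.0232 of the Slc1a5 level in NNMT cells and 0.458 ± 0.0106 in Ctrl cells (exact two-sided permutation p = 0.1, the smallest possible).

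The system A carriers, sodium-coupled importers of alanine, glutamine, methionine and other neutral amino acids, lie side by side on chromosome 15 and differed in direction. Slc38a1 (SNAT1, 96571418 to 96642913) had 26.5, 28.2 and 26.3 FPKM in NNMT libraries, against 22.2, 22.6 and 22.0 FPKM in Ctrl libraries. The groups were separate, and it rose 1.21-fold (log2 fold change 0.27, SE 0.0470, adjusted p = 0.000579). Slc38a2 (SNAT2, 96687392 to 96699730), the member known to be induced when amino acids are scarce, had 92.4, 97.7 and 103.3 FPKM in NNMT libraries, against 93.8, 89.5 and 90.5 FPKM in Ctrl libraries. The unnumbered NNMT library fell inside the Ctrl range while the other NNMT libraries lay above it. Slc38a2 did not pass (means 97.8 ± 5.44 FPKM in NNMT cells and 91.3 ± 2.22 FPKM in Ctrl cells, log2 fold change 0.10, SE 0.0512, adjusted p = 0.118), whereas without the unnumbered NNMT library it did (log2 fold change 0.14, adjusted p = 0.0270). Slc38a4 (SNAT4, 96994820 to 97055956), an imprinted gene best known from liver and placenta, had 24.4, 28.4 and 26.5 FPKM in NNMT libraries, against 35.3, 35.0 and 36.9 FPKM in Ctrl libraries. Every NNMT library was below every Ctrl library. It was the largest fall among the tested transporters, with a Ctrl mean 1.35 times the NNMT mean (log2 fold change -0.42, SE 0.0580, adjusted p = 0.000107).

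The neighbouring genes Slc38a1 and Slc38a4 thus differed in their balance between the groups. The ratio of Slc38a1 to Slc38a4 was 1.09, 0.995 and 0.991 in NNMT libraries, against 0.631, 0.644 and 0.595 in Ctrl libraries. No library of either group came near the other group (exact two-sided permutation p = 0.1, the smallest possible). Slc38a2 stood at 3.71 ± 0.237 times the Slc38a4 level in NNMT cells and 2.56 ± 0.102 times in Ctrl cells. The tested genes within 5 Mb of this cluster had a median log2 fold change of 0.11 to 0.12, in contrast to the -0.42 of Slc38a4. Slc38a3 (SNAT3), a system N carrier of liver, kidney and brain, had 1 read in NNMT cells and 4 reads in Ctrl cells.

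Less is known of the other SLC38 proteins. Slc38a10, which has been reported to carry glutamine and related amino acids, had 72.5, 61.3 and 62.8 FPKM in NNMT libraries, against 43.9, 44.3 and 43.2 FPKM in Ctrl libraries. The unnumbered NNMT library was the highest, and all NNMT libraries were clear of the narrow Ctrl range. It rose 1.495-fold (means 65.5 ± 6.06 FPKM in NNMT cells and 43.8 ± 0.592 FPKM in Ctrl cells, log2 fold change 0.57, SE 0.0622, adjusted p = 2.29e-05). Slc38a6 had 3.43, 3.13 and 3.69 FPKM in NNMT libraries, against 3.93, 4.01 and 4.06 FPKM in Ctrl libraries. The groups did not overlap and the fall passed narrowly, with a Ctrl mean 1.17 times the NNMT mean (log2 fold change -0.18, SE 0.0653, adjusted p = 0.0322). This call was lost without Ctrl replicate 1 (adjusted p = 0.0596), Ctrl replicate 2 (0.0795), Ctrl replicate 3 (0.0887), the unnumbered NNMT library (0.0529) or NNMT replicate 2 (0.105). Genes around it were lower too, with a median log2 fold change of -0.19 over the 54 tested within 5 Mb. Slc38a11 was at 0 in all libraries, where 3 reads would have given 0.0313 to 0.0396 FPKM.

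Of the sodium- and chloride-coupled carriers, the one for taurine was lower in NNMT cells. Slc6a6 (TauT), the importer of the sulfonic acid taurine, had 41.2, 40.3 and 38.3 FPKM in NNMT libraries, against 51.1, 51.3 and 51.0 FPKM in Ctrl libraries. The Ctrl libraries were almost equal, and all NNMT libraries lay below them. Means of 39.9 ± 1.53 FPKM in NNMT cells and 51.1 ± 0.172 FPKM in Ctrl cells gave a log2 fold change of -0.35 (SE 0.0453, adjusted p = 7.38e-05), a Ctrl mean 1.28 times the NNMT mean. Slc6a9 (GlyT1), the glycine carrier, had 30.2, 27.3 and 27.4 FPKM in NNMT libraries, against 28.9, 26.5 and 27.1 FPKM in Ctrl libraries. The groups overlapped and no change was called (log2 fold change 0.04, SE 0.0557, adjusted p = 0.553). Its exons overlap those of B4galt2 on the other strand (30.4 ± 3.62 FPKM in NNMT cells and 34.3 ± 0.416 FPKM in Ctrl cells), so part of its reads may belong to that gene. Around Slc6a9 on chromosome 4, 55 of 72 tested genes within 5 Mb were lower in NNMT cells and 2 were higher.

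In the endolysosomal class 2 of the 4 tested genes rose, and the rise of Slc38a7 was the larger. Slc38a7 (SNAT7; ENSMUSG00000036534, chromosome 8, 95835920 to 95853539, minus strand), which exports glutamine and asparagine from lysosomes, had 14.6, 12.8 and 14.2 FPKM in NNMT libraries, against 6.85, 5.76 and 6.49 FPKM in Ctrl libraries. The lowest NNMT library was far above the highest Ctrl library. Slc38a7 averaged 13.8 ± 0.935 FPKM in NNMT cells and 6.37 ± 0.556 FPKM in Ctrl cells, 2.17-fold apart (log2 fold change 1.01, SE 0.0700, adjusted p = 9.02e-07), on 5165 and 2209 reads in all. Its log2 fold change and that of Slc7a11 were the largest of the 23, in an order that changed with the added constant: with 0.1 FPKM in place of 1, Slc7a11 stood at 1.23 and Slc38a7 at 1.11.

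Slc38a9, the arginine-sensing carrier of the lysosomal membrane that signals to mTORC1, lay below the filter at 0.598, 0.613 and 0.665 FPKM in NNMT libraries, against 0.485, 0.519 and 0.624 FPKM in Ctrl libraries. Those groups overlapped (adjusted p = 0.391 with no filter). Slc36a1 (PAT1), a proton-coupled carrier of small amino acids, had 3.92, 3.81 and 3.90 FPKM in NNMT libraries, against 4.12, 3.996 and 3.93 FPKM in Ctrl libraries, with each NNMT value just below the lowest Ctrl value. The difference did not pass (log2 fold change -0.04, SE 0.0564, adjusted p = 0.545). The ratio of Slc38a7 to Slc36a1 was 3.57 ± 0.187 in NNMT cells and 1.59 ± 0.125 in Ctrl cells. Both genes, like Slc43a1, have an E-box in the window printed above, and a part of the E-box in these levels was not tested. Slc36a4 (PAT4), a high-affinity proline and tryptophan carrier, had 5.80, 5.51 and 5.79 FPKM in NNMT libraries, against 4.95, 4.85 and 5.18 FPKM in Ctrl libraries. Its 1.14-fold rise passed (log2 fold change 0.16, SE 0.0554, adjusted p = 0.0259), near the median of 0.17 for 29 tested genes within 5 Mb. That call was lost without Ctrl replicate 1 (adjusted p = 0.0713), Ctrl replicate 2 (0.0917), the unnumbered NNMT library (0.0557) or NNMT replicate 3 (0.0727). Slc15a4 (PHT1), which exports histidine and small peptides from endolysosomes, had 8.24, 8.11 and 8.41 FPKM in NNMT libraries, against 9.08, 9.45 and 8.69 FPKM in Ctrl libraries. Every NNMT value was below every Ctrl value, and the difference missed the threshold (log2 fold change -0.12, SE 0.0520, adjusted p = 0.0599).

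The single mitochondrial carrier, Slc25a22, brings glutamate into the matrix. It had 11.2, 12.1 and 11.7 FPKM in NNMT libraries, against 10.4, 9.85 and 9.93 FPKM in Ctrl libraries. The groups were separate, and it rose 1.16-fold (log2 fold change 0.20, SE 0.0507, adjusted p = 0.00608).

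**Figure D3:**
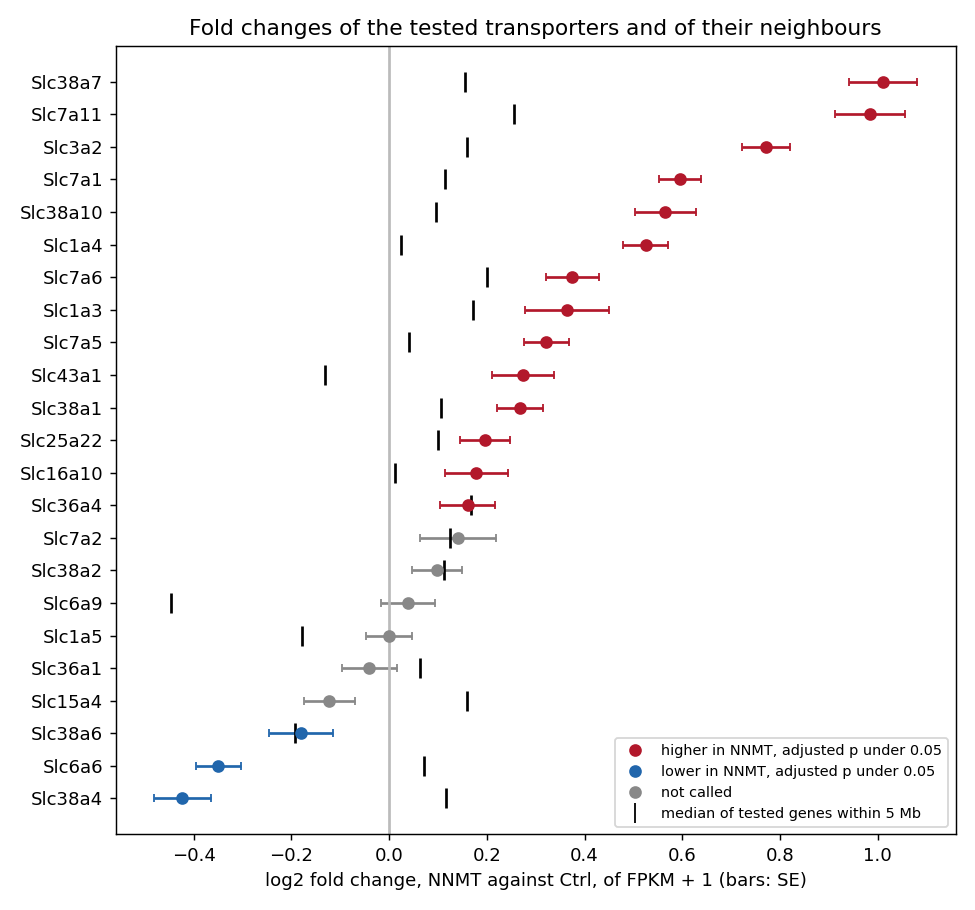
log2 fold change of FPKM + 1, NNMT over Ctrl, with its standard error for the 23 tested transporters, coloured by call, and beside each the median log2 fold change of the tested genes within 5 Mb (black bar). Slc38a7 (1.01), Slc7a11 (0.98) and Slc3a2 (0.77) stand farthest to the right and Slc38a4 (-0.42) farthest to the left, while the bars of the neighbours lie between -0.45 and 0.26.

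Because levels differed between the groups along whole chromosomes, each transporter was set beside its neighbours. The median log2 fold change of tested genes within 5 Mb ranged from -0.45 around Slc6a9 to 0.26 around Slc7a11, and its median over the 23 transporters was 0.11. After subtraction of the neighbours' median, the median of the 23 was 0.18, and 15 of the 17 called genes kept their sign. The exceptions were Slc38a6 and Slc36a4, whose calls also depended on single libraries, as did that of Slc16a10, which kept its sign. No test was run on the values after subtraction. Around Slc1a5 the neighbours were mostly lower in NNMT cells (40 lower and 8 higher of 72 tested, median -0.18), while Slc1a5 itself was level.

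Summed within transport classes, most groups of carriers were higher in NNMT cells. The 32 genes together had 1006, 978 and 965 FPKM in NNMT libraries, against 789, 781 and 784 FPKM in Ctrl libraries. These sums did not overlap, and their means of 983 ± 21.001 FPKM in NNMT cells and 784 ± 4.13 FPKM in Ctrl cells were 1.253-fold apart. The 4F2hc carriers held the greatest summed level, 434 ± 17.1 FPKM in NNMT cells and 299 ± 1.08 FPKM in Ctrl cells, a 1.45-fold difference. Cationic carriers summed to 55.8 ± 0.712 FPKM in NNMT cells and 37.5 ± 1.01 FPKM in Ctrl cells (1.49-fold). Endolysosomal carriers summed to 32.3 ± 1.27 FPKM in NNMT cells and 24.99 ± 0.459 FPKM in Ctrl cells (1.29-fold). Slc38a7 made up all of this difference, and the other genes of the class together were not higher in NNMT cells.

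System A and N carriers formed the class whose sum had the fold nearest to 1. The means of Slc38a1 and of Slc38a2 (not called) were higher in NNMT cells, and that of Slc38a4 was lower. Their sum was 151 ± 6.91 FPKM in NNMT cells and 149 ± 2.08 FPKM in Ctrl cells (1.01-fold), and the libraries overlapped. The taurine and glycine carriers alone had a lower sum in NNMT cells, 68.3 ± 2.94 FPKM, than in Ctrl cells, 78.7 ± 1.22 FPKM. The 6 transporters with the highest mean FPKM in NNMT cells (Slc3a2, Slc7a5, Slc38a2, Slc1a5, Slc38a10 and Slc7a1) took 70.9% of the summed FPKM there, and the same genes took 66.9% in Ctrl cells, where Slc6a6, Slc38a4 and Slc1a4 stood above Slc7a1. The share of Slc1a5 was 7.92% in NNMT cells and 9.93% in Ctrl cells, and that of Slc7a5 was 19.7% in NNMT cells and 19.8% in Ctrl cells.

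**Figure D4:**
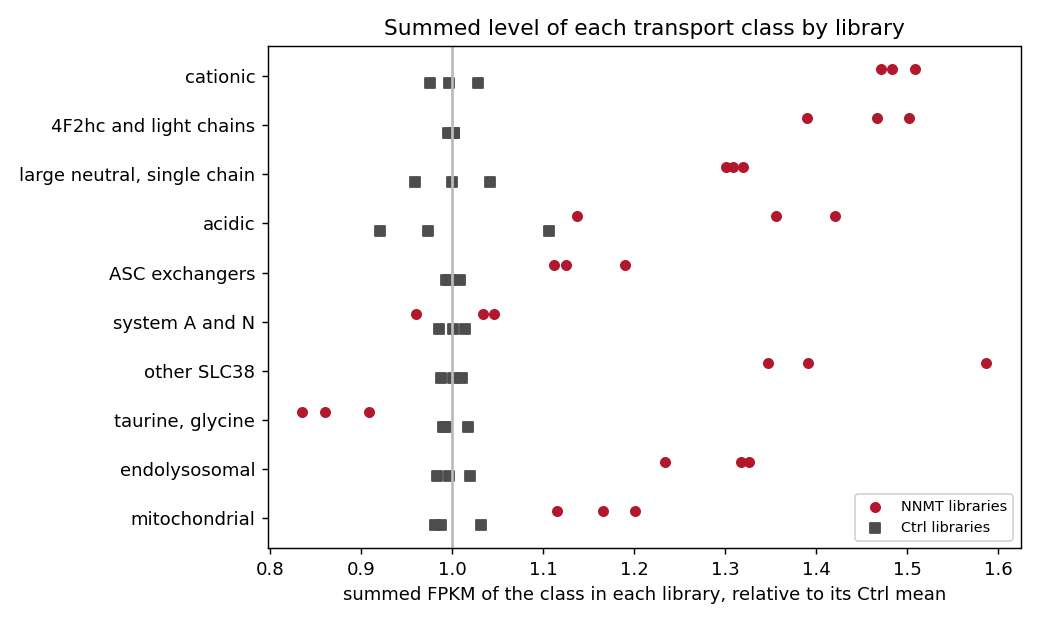
Summed FPKM of each transport class in each library, divided by the mean of the Ctrl libraries for that class, with NNMT libraries as red circles and Ctrl libraries as grey squares. The cationic (1.49-fold) and 4F2hc (1.45-fold) classes lie to the right in all NNMT libraries, system A and N straddles 1, and the taurine and glycine carriers lie to the left.

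Other genes of amino acid transport and sensing were compared from lists chosen for their function. Of 46 other amino acid carriers, 12 were at 0 in all libraries and 12 could be tested, of which 5 rose and 4 fell, the median log2 fold change being 0.09. Sfxn3, a mitochondrial serine carrier, rose 1.28-fold (47.1 ± 1.71 FPKM in NNMT cells and 36.7 ± 0.920 FPKM in Ctrl cells, adjusted p = 8.98e-05). Slc25a12, the mitochondrial aspartate and glutamate exchanger, fell to 10.3 ± 0.0191 FPKM in NNMT cells, against 12.01 ± 0.332 FPKM in Ctrl cells (adjusted p = 0.00361), a log2 fold change of -0.20 beside a median of -0.13 for the tested genes within 5 Mb. A pair of lysosomal carriers fell as well, with Slc66a1 (Pqlc2 in the annotation used), an exporter of cationic amino acids, at 1.16 ± 0.130 FPKM in NNMT cells and 1.82 ± 0.210 FPKM in Ctrl cells (adjusted p = 0.00203). The log2 fold change of Slc66a1 was -0.38, beside a median of -0.34 for its 75 tested neighbours within 5 Mb. Of these neighbours, 58 were lower in NNMT cells. At the low level of Slc66a1 the added constant of 1 FPKM makes the -0.38 small, and its Ctrl mean was 1.57 times its NNMT mean. Mfsd12, which carries cysteine into lysosomes, had 2.00 ± 0.360 FPKM in NNMT cells and 3.24 ± 0.328 FPKM in Ctrl cells (adjusted p = 0.000914), and its exons overlap those of Fzr1.

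All 20 genes of the GCN2 and ATF4 arm were tested, 12 of them rising and 5 falling (median log2 fold change 0.18). Trib3, a pseudokinase induced by ATF4, rose 1.78-fold (107 ± 6.23 FPKM in NNMT cells and 60.0 ± 2.44 FPKM in Ctrl cells, adjusted p = 7.02e-07). Ppp1r15a (GADD34), which directs dephosphorylation of eIF2α, rose 2.08-fold (30.4 ± 3.58 FPKM in NNMT cells and 14.6 ± 0.652 FPKM in Ctrl cells, adjusted p = 1.58e-06), and Nupr1, a stress-induced chromatin protein, rose 1.39-fold (adjusted p = 2.22e-05). The list was not uniform, since Atf5 fell to 143 ± 5.04 FPKM in NNMT cells, against 209 ± 11.1 FPKM in Ctrl cells (adjusted p = 9.17e-06). Eif2ak4 (GCN2 itself), Psat1, Sesn2 and Ppp1r15b fell as well. The log2 fold change of Sesn2, -0.20, was smaller than the median of -0.34 for its tested neighbours within 5 Mb. The other falls lay below their neighbours' medians: Atf5 (-0.54 beside -0.12), Eif2ak4 (-0.36 beside -0.19), Psat1 (-0.29 beside 0.05) and Ppp1r15b (-0.38 beside -0.15). Among the 12 rises, Trib3 (0.82 beside 0.17), Ppp1r15a (1.00 beside -0.12) and Atf3 (0.56 beside -0.10) lay above theirs by the most. Ddit3 (0.38 beside -0.11), Chac1 (0.27 beside -0.21) and Nupr1 (0.45 beside 0.20) followed. Rises close to their neighbours' medians were those of Gcn1 (0.23 beside 0.19), Atf4 (0.19 beside 0.13) and Cebpb (0.28 beside 0.24). So were those of Asns (0.17 beside 0.13), Eif4ebp1 (0.22 beside 0.21) and Phgdh (0.13 beside 0.17).

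Of 34 genes of lysosomal amino acid sensing upstream of mTORC1, 32 were tested, and 11 rose, 9 fell and 12 did not pass (median log2 fold change 0.02). Rragc, a GTPase that brings mTORC1 to the lysosome, fell to 18.3 ± 0.502 FPKM in NNMT cells, against 31.4 ± 1.27 FPKM in Ctrl cells (adjusted p = 6.26e-07), a log2 fold change of -0.75 beside a neighbours' median of -0.41. Castor1, the cytosolic arginine sensor, fell to 0.710 ± 0.0171 FPKM in NNMT cells, against 1.81 ± 0.252 FPKM in Ctrl cells (adjusted p = 3.40e-05). Castor1 reached the filter of a mean of 1 FPKM only through its Ctrl libraries. Its place among the 9 falls thus depends on the group where it was high. Tfe3, a lysosomal transcription factor encoded on chromosome X, fell to 9.38 ± 0.122 FPKM in NNMT cells, against 15.2 ± 0.480 FPKM in Ctrl cells (adjusted p = 1.54e-06). All 31 tested genes within 5 Mb of Tfe3 were lower too, and their median log2 fold change of -0.72 was beyond the -0.64 of Tfe3 itself. Wdr59, a subunit of the GATOR2 complex, rose 1.37-fold to 9.40 ± 0.252 FPKM in NNMT cells, against 6.87 ± 0.272 FPKM in Ctrl cells (adjusted p = 7.97e-05), a log2 fold change of 0.40 beside a neighbours' median of 0.23. The shares called in these lists are to be read against the 65.6% of all genes tested. Rises made up 41.7% of the tested other carriers, 60% of the GCN2 and ATF4 arm and 34.4% of the mTORC1 list, against 35.0% of all genes. Falls made up 33.3%, 25% and 28.1% in the same order, against 30.6% of all genes.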

How the data were processed

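RNA of 6 libraries was measured by sequencing, 3 per group. Total RNA was extracted with a Qiagen column kit and libraries were made with NEB protocols, per the labels' protocols. Per the submitters' processing notes the tools were CASAVA and STAR 2.5, and the build was mm10. The sources used here do not give the counter, its strand rule or its annotation. A single table was deposited by the authors, with a value per gene and library and no unit. The deposited values were read as FPKM, because each gene's values rise in equal steps whose size follows gene length. The longest GENCODE M21 transcript gave this length for 14597 of 20528 genes above 0 (71.1%). Reads were recovered from these steps for 20528 genes (tolerance 0.01 of a read) and sum to 99.858% to 99.865% of the implied library totals. For 10 transporters, Slc7a11 among them, the length was found by a search over step sizes, so their reads could be off by a whole multiple and are not printed. Of 35275 identifiers, 34490 were paired with GENCODE M21 (GRCm38, which mm10 names), the source of symbols and coordinates. Of the 6 columns, 5 have a replicate number. Libraries of a group differed beyond counting error (chi-square per degree of freedom 9.88 to 20.2 in NNMT cells and 5.70 to 6.97 in Ctrl cells), so none was treated as a copy. The labels call the samples of a group biological replicates, but p-values measure only the spread between these libraries.

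Tests used limma 3.58.1 (R 4.3.3) on log2(FPKM + 1), for genes whose mean reached 1 FPKM (mean-variance trend, robust moderation, two-sided, Benjamini-Hochberg adjustment over all 10882 genes, threshold 0.05). Folds are ratios of group means, given where each group had at least 10 reads. Ratios between genes were compared with exact permutation tests over libraries (6 single ratios and the light to heavy chain ratio), none of which can go below p = 0.1. Floors of 3 reads cover counting error only. The fit was run on simulated data with few changed genes and equal scatter in both groups. That setting differs from these data, so it does not measure the error of the calls given here. All 32 genes are accounted for, and of the other lists up to 4 tested genes with the smallest adjusted p are named. The other called genes of the GCN2 list were also named, after their values were seen. The transporters and lists were chosen with earlier results of these data known. Promoters are RefSeq windows. A comparison of protein sequences was not made here.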

Additional observations from a re-analysis of the deposited data

How the results depend on the processing

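Pseudocounts of 0.1 and 10, no filter on low values, a filter at a mean of 5 FPKM, quantile and median of ratios scaling, limma without trend or without robust moderation, limma-voom on recovered reads, an adjusted p under 0.01, each library left out in turn and a replicate block were tried. Of the 23 tested transporters, 15 kept their direction and their call in each of these 17 settings that tested them. The median log2 fold change of the tested transporters, 0.20, became 0.25 with a pseudocount of 0.1, 0.0891 with 10, 0.15 with no filter (over 30 genes), 0.27 with the filter at 5 FPKM and 0.26 with limma-voom. An adjusted p under 0.01 left 6 rises in the mTORC1 list in place of 11, and the filter at 5 FPKM left 2 falls among the other carriers in place of 4, fewer genes being tested there. Slc1a5, not called under any setting, had a log2 fold change of 0.00773 with quantile normalization and -0.0347 to 0.0216 with each library left out, and Slc6a9 one of -0.00698 to 0.0745. Slc38a2 passed with quantile normalization (adjusted p = 0.0417), Slc15a4 with the same (0.0217) and median of ratios scaling (0.0308), and Slc7a2 with limma-voom (0.0495). Slc16a10 was not called with quantile normalization (0.131), nor Slc38a6 with no filter (0.0520). The causes of the other shifts were not tested. Rises numbered 12 to 14 and falls 2 or 3 with each library left out. The replicate block could be fitted only on the numbered libraries 2 and 3 of each group. Deviations of same-numbered libraries correlated at 0.21 and 0.11, but NNMT replicate 2 correlated with Ctrl replicate 3 as closely (0.21), so the numbers were not taken to pair libraries. With the block, 13 transporters rose and 3 fell, their median was 0.24, 3903 of all genes rose and 3207 fell. Levels below about 0.04 FPKM rest on a few reads.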

Other observations

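Values scattered more between NNMT libraries than between Ctrl libraries, for the transporters as for the whole table. The coefficient of variation was larger in NNMT cells for 17 of the 23 tested transporters (73.9%) and for 65.5% of all 10882 genes tested. Among the transporters it had a median of 5.06% in NNMT cells and 2.54% in Ctrl cells, against 6.05% in NNMT cells and 4.33% in Ctrl cells over all genes. It was least for Slc7a1 in NNMT cells (1.37%) and for Slc6a6 in Ctrl cells (0.337%). Of the 17 called genes, 6 had their highest NNMT value in the unnumbered library, 8 in replicate 2 and 3 in replicate 3, so that no single NNMT library was highest throughout.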
